A study of Homo sapiens with 24 samples.

Results

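Chromosomes 4, 13 and 18 are among the human chromosomes with the fewest protein-coding genes per length, and their signal of 8-oxo-7,8-dihydroguanine (OG) is described here. The members were all bins of 1 kb on these chromosomes that were not zero in all 12 columns of the deposited table. Bins within the outer 1 Mb of each chromosome were left out, as were bins of chromosome 13 that start below 19.5 Mb. This gave 351272 of the 2805354 bins that were not zero in all columns (12.5%), with 184948 on chromosome 4, 93670 on chromosome 13 and 72654 on chromosome 18. A further 5749 bins of these chromosomes lay in the parts left out, and 16456 were zero in every column, 16255 of them on chromosome 13.

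OG-seq was run on HAP1 cells, a near-haploid human line derived from a leukemia, and on knockouts of 2 glycosylase genes: MUTYH-/-, OGG1-/- and the double knockout of both (DKO), beside the unedited WT. The knockouts were made with CRISPR-Cas9, with 2 clones per genotype, and the DKO clones derive from 1 of the OGG1-/- clones. The cells of all groups were grown without an oxidizing agent, and antioxidants were present in every sample while its DNA was isolated. Each genotype had 3 columns in the table, numbered 1 to 3 here, which the column names do not tie to clones or experiments. By the sample titles, 2 of the 3 OG libraries of each genotype come from the same clone, so the columns are not independent clones. P-values therefore measure the spread between columns, part of which may be technical, and the tests treat columns as independent.

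OG is among the most common oxidized bases of DNA, and adenine can be placed opposite it when DNA is copied. The glycosylase OGG1 removes OG from pairs with cytosine, and MUTYH removes the adenine placed opposite OG, so both act against G-to-T changes. Guanine next to other guanines is oxidized more easily than isolated guanine, and gene-poor chromosome arms are rich in A and T and mostly replicate late. These points are background.

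In OG-seq, OG bases in fragmented DNA are bound to biotin, and the fragments are pulled down and sequenced beside input DNA. A deposited value is the number of OG reads of a bin minus its scaled input reads, so it can lie below 0. Each column was divided by its mean over all bins, and this relative signal is 1 at the genome mean. The OG reads solved from the values came to 59599618 to 113913453 per column. A bin held a mean of 21.02 to 40.2 OG reads, so single bins carry a large counting error. Between 24.5% and 28.3% of the members were below 0, depending on the column.

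The sequences below show what the extremes of the 3 chromosomes look like. On each chromosome, the windows of 1 Mb with the highest and with the lowest signal were taken, and in each the highest or lowest bin that overlaps no annotated exon. Printed are the central 120 bases of 5 such bins, from the forward strand of GRCh38, with runs of 3 or more G or C in capitals.
chromosome 4, highest bin, chr4:8631441-8631560: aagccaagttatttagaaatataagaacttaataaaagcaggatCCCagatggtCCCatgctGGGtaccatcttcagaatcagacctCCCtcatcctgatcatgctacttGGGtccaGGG
chromosome 13, highest bin, chr13:98036441-98036560: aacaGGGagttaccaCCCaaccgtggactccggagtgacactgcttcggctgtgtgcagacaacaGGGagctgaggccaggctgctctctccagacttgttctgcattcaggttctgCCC
chromosome 13, lowest bin, chr13:56287441-56287560: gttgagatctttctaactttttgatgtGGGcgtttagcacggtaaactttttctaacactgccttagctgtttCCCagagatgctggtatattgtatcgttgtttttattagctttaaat
chromosome 18, highest bin, chr18:48993441-48993560: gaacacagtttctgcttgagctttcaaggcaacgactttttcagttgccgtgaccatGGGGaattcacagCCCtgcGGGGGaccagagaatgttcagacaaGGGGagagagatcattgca
chromosome 18, lowest bin, chr18:33239441-33239560: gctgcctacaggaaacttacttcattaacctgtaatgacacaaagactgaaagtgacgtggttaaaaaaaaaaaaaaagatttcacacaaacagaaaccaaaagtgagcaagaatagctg
In the 3 high bins, 51.6% to 54.1% of the bases were G or C. The low bin of chromosome 13 had 33.1% and that of chromosome 18 had 31.9%, and the low ends of the 3 chromosomes are not compared from these 2 bins. The printed stretches hold 4 to 6 runs in the high bins and 0 to 2 in the low bins shown. Of the 5 bins, 4 lie outside protein-coding genes, and the low bin of chromosome 18 lies in CCDC178. Since the bins were chosen for their values, these are descriptions. The high bin of chromosome 4 had a mean relative signal of 4.16 ± 3.37 (SD, n = 12), from -1.67 in WT 2 to 10.1 in OGG1 3. The high bin of chromosome 13 had 2.86 ± 1.52 and that of chromosome 18 had 2.70 ± 1.43 (SD, n = 12). The low bins shown had -0.585 ± 0.802 on chromosome 13 and -0.644 ± 0.801 on chromosome 18 (SD, n = 12). The spread over columns was of the order of the value itself in each of these bins, and the results that follow rest on sums over many bins. The high bin of chromosome 4 held a mean of 77.9 input reads beside 91.9 OG reads. Those of chromosomes 13 and 18 held 42.4 and 40.9 input reads. Over all bins the mean was 27.7 to 35.8 input reads per bin, depending on the column.

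The gene-poor label held in the annotation. The members carried 3.59 protein-coding genes per Mb (1261 genes), against 7.45 on the other chromosomes. Among 23 chromosomes, chromosomes 13, 18 and 4 had, in this order, the fewest genes per Mb. Their bins had a mean GC content of 38.2% on chromosome 4, 38.4% on chromosome 13 and 39.6% on chromosome 18, against 41.2% elsewhere. CpG dinucleotides were found at 8.08 per kb against 10.1 per kb, and runs of 3 or more G or C at 16.9 per kb against 20.6 per kb.

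OG signal was low on all 3 chromosomes in every genotype. The members together had a relative signal of 0.862, 0.878 and 0.868 in the 3 WT columns. They had 0.811, 0.895 and 0.902 in MUTYH-/-, 0.862, 0.803 and 0.849 in OGG1-/-, and 0.923, 0.819 and 0.886 in DKO. All 12 values were below 1, and the genotypes overlapped. The other chromosomes had 1.03 ± 0.00521 (SD, n = 12), so the difference was -0.168 ± 0.0425 (SD, n = 12 columns), below 0 in 12 of 12 columns. By an exact sign-flip permutation test, two-sided, p = 0.000488, which is the smallest p that 12 columns allow. Without the 1 Mb windows of the other chromosomes whose input coverage (input reads per bin, relative to the genome mean) lay outside 0.7 to 1.3 of the mean in any column, a setting chosen after the data were seen, the difference was -0.145.

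The 3 chromosomes differed among themselves. Chromosome 4 was lowest with 0.846 ± 0.0434, followed by chromosome 13 with 0.862 ± 0.0363 and chromosome 18 with 0.908 ± 0.0251 (SD, n = 12). Their differences from the other chromosomes were -0.186, -0.169 and -0.123, each with an adjusted p of 0.000488 over 3 chromosomes by the exact sign-flip test. Chromosome 4 was below chromosome 13 by a difference of -0.0168 ± 0.0123 (SD), in 11 of 12 columns (adjusted p = 0.00293 over 3 pairs, exact sign-flip test). Chromosome 18 was above both, in 12 of 12 columns each: the differences of chromosomes 4 and 13 from it were -0.0627 ± 0.0212 and -0.0460 ± 0.0149 (adjusted p = 0.000732 for each, exact sign-flip test).

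In the plot of the 23 chromosomes, chromosome 4 was the lowest autosome in 11 of 12 columns and chromosome 13 in the remaining 1. Chromosome X was lower still on average, with 0.836 ± 0.0377 (SD, n = 12). Chromosome 5 had 0.914 ± 0.0215 (SD, n = 12) at 39.5% GC, beside 0.908 at 39.6% GC for chromosome 18. Chromosomes 8, 3, 6 and 2 had 0.936, 0.942, 0.952 and 0.958, so a signal below 1 was not particular to chromosomes 4, 13 and 18. Chromosome 15 stood far above the rest at its GC content, with 1.49 ± 0.0478, and its input coverage was 1.39 ± 0.00984 of the genome mean (SD, n = 12). The input coverage of the 3 chromosomes was close to that of each other, at 0.947 for chromosome 4, 0.947 for chromosome 13 and 0.952 for chromosome 18.

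**Figure D1:**
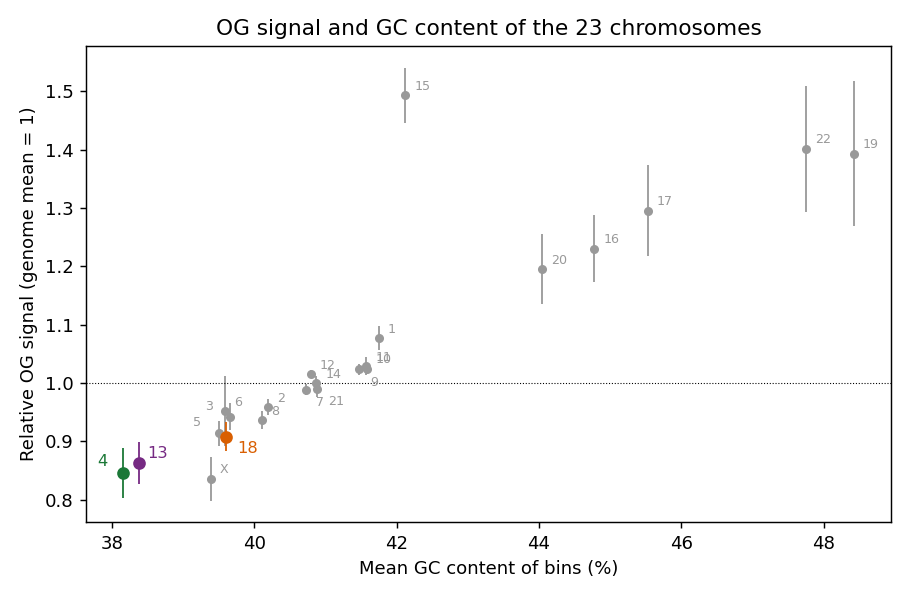
Relative OG signal (y axis, genome mean = 1) against the mean GC content of the bins (x axis, %) for 23 chromosomes. Points are means and bars the SD over 12 columns. Chromosomes 4, 13 and 18 lie at the low end of both axes, at 0.846, 0.862 and 0.908.

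Most of the low signal came with low GC content. When every member was given the mean signal of bins of equal GC content on the other autosomes, in steps of 1 percentage point, the expected signal of the 3 chromosomes was 0.897 ± 0.0315 (SD, n = 12). The observed signal was below this by a difference of -0.0339 ± 0.00722 (SD), in 12 of 12 columns (p = 0.000488, exact sign-flip test), or 20.1% of the difference from the other chromosomes. Without the windows of changed input on the other chromosomes it was -0.0192. The remaining difference was -0.0291 ± 0.00908 on chromosome 4, -0.0296 ± 0.00819 on chromosome 13 and -0.0516 ± 0.0101 on chromosome 18 (SD, n = 12).

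On the scale of the deposited values, chromosome 18 had the highest signal of the 3 and also the largest shortfall at equal GC content. Its remainder was below that of chromosome 4 by a difference of -0.0225 ± 0.00916 and below that of chromosome 13 by -0.0220 ± 0.00839 (SD, n = 12), in 12 of 12 columns each (adjusted p = 0.000732 over 3 pairs for each, exact sign-flip test). The remainders of chromosomes 4 and 13 differed by 0.000452 ± 0.0111 (SD, n = 12), with adjusted p = 0.900 by the same exact test. These 3 pairs were compared after the values had been seen.

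On the scale of the deposited values, the shortfall grew with the GC content of the bins. The GC classes are not given with OG reads divided by input reads. The other autosomes in them include chromosome 15, with input coverage of 1.39 of the genome mean. Bins with under 35% GC made up 30.3% of the members and 19.2% of the bins of the other autosomes. There the signal was 0.541 ± 0.113 on the 3 chromosomes and 0.545 ± 0.113 on the others (SD, n = 12). From 45% to 50% GC it was 1.33 ± 0.0821 against 1.44 ± 0.103, and in bins with at least 50% GC, 4.83% of the members, 1.47 ± 0.155 against 1.66 ± 0.193 (SD, n = 12). In these last 2 classes the 3 chromosomes were lower in 12 of 12 columns. Below 33% GC the order was turned in most columns: at 28% GC the 3 chromosomes had 0.428 ± 0.143 and the other autosomes 0.401 ± 0.142 (SD, n = 12), with the 3 chromosomes higher in every column.

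**Figure D2:**
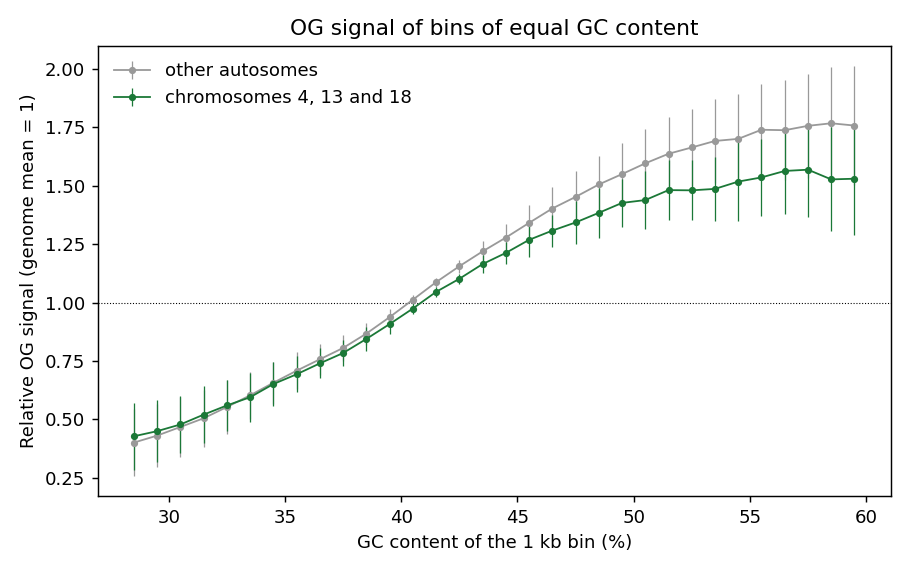
Relative OG signal (y axis, genome mean = 1) of 1 kb bins grouped by GC content (x axis, steps of 1%), for chromosomes 4, 13 and 18 in green and the other autosomes in gray. Points are means and bars the SD over 12 columns. On the scale of the deposited values, the curves meet near 33% GC and separate above it, to 1.48 against 1.66 at 52% GC.

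Because the deposited value is a difference of reads, it also moves with the number of reads a region gives. Input coverage of the 3 chromosomes was 0.948 ± 0.00962 of the genome mean, and OG coverage was 0.923 ± 0.0122 (SD, n = 12). On a scale that divides OG reads by input reads, relative to the genome, the members had 0.973 ± 0.0102 and the difference from the other chromosomes was -0.0303 ± 0.0116 (SD, n = 12; p = 0.000488, exact sign-flip test). The difference from bins of equal GC content was then -0.00100 ± 0.00235 (SD, n = 12), below 0 in 8 of 12 columns (p = 0.172, exact sign-flip test). This is 3.30% of the difference from the other chromosomes on that scale, against 20.1% for the deposited values. On the same scale chromosome 18 was at -0.00163 ± 0.00305 from its GC expectation (SD, n = 12; adjusted p = 0.253 over 3 chromosomes, exact sign-flip test). Its remainder then differed from that of chromosome 4 by -0.000330 ± 0.00240 (SD, n = 12; adjusted p = 0.643) and from that of chromosome 13 by -0.00170 ± 0.00246 (SD, n = 12; adjusted p = 0.116, both over 3 pairs by the exact sign-flip test), so neither pair stayed past the threshold. The signal below the GC expectation, and its order among the 3 chromosomes, thus depended on whether the input was subtracted or used as a divisor.

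The genotypes did not separate on these chromosomes. WT had a mean of 0.869 ± 0.00835 and MUTYH-/- one of 0.869 ± 0.0503, while OGG1-/- had 0.838 ± 0.0310 and DKO 0.876 ± 0.0527 (SD, n = 3 columns). By exact permutation tests the difference from WT was -4.5e-05 for MUTYH-/- (p = 1.0). It was -0.0315 for the OGG1-/- columns (p = 0.20) and 0.00647 for DKO (p = 0.80), by exact two-sided permutation tests that cannot go below p = 0.10 with 3 columns against 3. Over 12 comparisons (3 knockouts on the 3 chromosomes together and each alone) the smallest adjusted p was 0.60. Without MUTYH 1 the difference of MUTYH-/- was 0.0289, and without DKO 1 that of DKO was -0.0170. A test of all 4 genotypes at once, over all groupings of the columns into 4 sets of 3, gave F = 0.553 and p = 0.645 (exact permutation test).

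OGG1-/- had the lowest mean on each chromosome. On chromosome 18 its 3 columns, 0.904, 0.867 and 0.894, all lay below those of WT, 0.909, 0.905 and 0.916, which gives the smallest p possible, 0.10, by the exact permutation test (adjusted p = 0.60). On chromosome 4 the OGG1-/- columns were 0.845, 0.777 and 0.833 and the WT columns 0.845, 0.867 and 0.847, so the groups overlapped. After subtraction of the GC expectation, the difference of OGG1-/- from WT was -0.000891 on the 3 chromosomes and -0.00698 on chromosome 18 (p = 1.0 and p = 0.40, exact permutation tests).

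**Figure D3:**
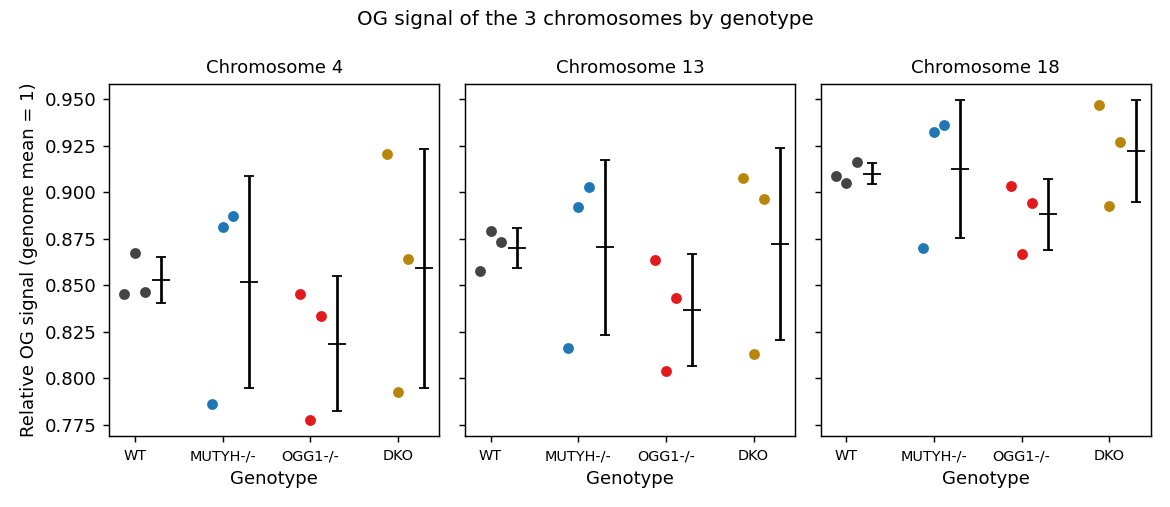
Relative OG signal (y axis, genome mean = 1) of chromosomes 4, 13 and 18 in the 3 columns of each genotype (colored points), with the mean and SD (black). MUTYH-/- and DKO columns spread from 0.786 to 0.888 and from 0.792 to 0.921 on chromosome 4, around the 3 WT columns.

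The columns of each knockout spread more widely than the 4 genotype means, which ran from 0.838 to 0.876, while those of WT, from 0.862 to 0.878, did not. The signal of a column moved with its GC dependence. The rise of the signal with GC content was measured on the other autosomes, which share no bin with the members, between 30% and 51% GC. It ranged from 0.434 to 0.837 in relative signal per 10 percentage points. The steepest columns were OGG1 2 with 0.837, MUTYH 1 with 0.826 and DKO 2 with 0.809, and these had the lowest signal on the 3 chromosomes, 0.803, 0.811 and 0.819. Over 12 columns, Pearson's r was -0.967 (permutation p = 2e-05) and Spearman's rho was -0.979 (permutation p = 1e-05, the smallest that 100000 resamples give), with adjusted p of 6e-05 and 3e-05 over 3 relations. Without OGG1 2 and MUTYH 1, the 2 columns farthest from the median slope, r was -0.935. For deviations from the genotype means it was -0.990. Sharing no bin does not make slope and signal independent, because each column is scaled to a mean of 1. A steeper rise with GC thus lowers GC-poor chromosomes by construction, and the p-values of this relation are not evidence of a link. OG reads per bin (r = -0.342, permutation p = 0.272; rho = -0.406, permutation p = 0.190) and the factor by which input reads were scaled (r = -0.270, permutation p = 0.397; rho = -0.238, permutation p = 0.457) did not show such a relation past the threshold. Without the 2 columns farthest from their medians, WT 1 and WT 2 in both cases, r was -0.432 and -0.394. This relation was computed after the values had been seen.

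**Figure D4:**
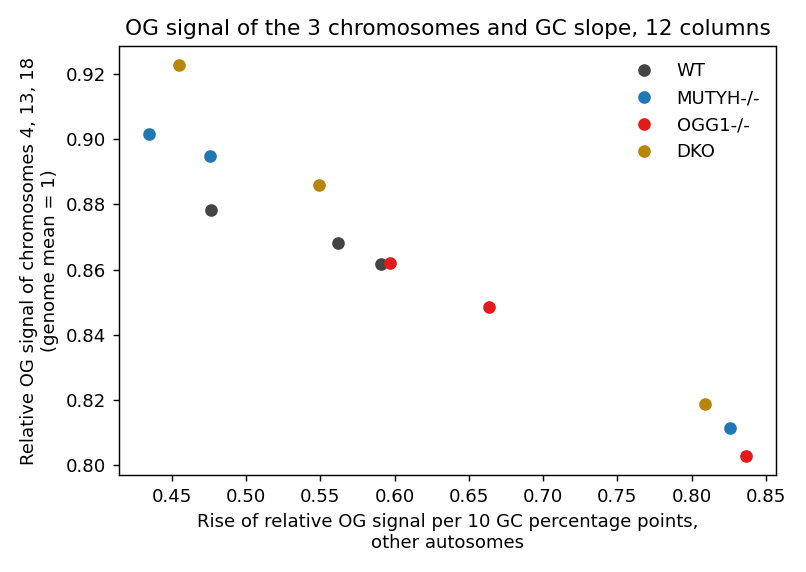
Relative OG signal of chromosomes 4, 13 and 18 (y axis, genome mean = 1) against the rise of signal per 10 GC percentage points on the other autosomes (x axis), with 1 point per column, colored by genotype. The 3 columns with a rise above 0.8 are the 3 lowest, from 0.803 to 0.819.

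Within the 3 chromosomes, signal varied widely along their length. Of 351 windows of 1 Mb with at least 500 bins, 270 (76.9%) had a mean below 1, against 52.2% of 2459 windows elsewhere. In 217 windows every column was below 1, and in 42 every column was above 1. Window means ran from 0.574 to 1.51 with a median of 0.834, and the median SD over columns was 0.0703. Across the 351 windows, which share the 12 libraries, signal and GC content had a Pearson's r of 0.951, signal and gene starts 0.631, and signal and input coverage 0.902. These are descriptions, and windows are not replicates.

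The highest windows of chromosome 4 lie near the tip of its short arm. The window from 8 to 9 Mb reached 1.51 ± 0.189 (SD, n = 12) at 52.8% GC. Among the genes that start in it are SH3TC1, HTRA3, ACOX3, TRMT44, GPR78, CPZ and HMX1, and HTRA3 encodes a secreted serine protease. Its columns were 1.52, 1.48 and 1.498 in WT, 1.84, 1.301 and 1.37 in MUTYH-/-, 1.57, 1.80 and 1.48 in OGG1-/-, and 1.19, 1.64 and 1.42 in DKO. The spread among the knockout columns exceeded that of WT, and no genotype stood apart. The window from 1 to 2 Mb had 1.51 ± 0.231 (SD, n = 12) at 54.7% GC and 14 gene starts, among them FGFR3, a fibroblast growth factor receptor, NSD2, a histone methyltransferase, and SLBP, which binds histone mRNA. The window from 7 to 8 Mb, with SORCS2 and AFAP1, had 1.49 ± 0.135 (SD, n = 12). Against bins of equal GC content these 3 windows were at -0.0396, 0.0280 and -0.0494.

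The 2 lowest windows of chromosome 4 were gene deserts. The window from 45 to 46 Mb, where no protein-coding gene starts, had 0.574 ± 0.0857 (SD, n = 12) at 35.3% GC. Its columns were 0.581, 0.566 and 0.529 in WT, 0.482, 0.660 and 0.693 in MUTYH-/-, 0.588, 0.394 and 0.628 in OGG1-/-, and 0.655, 0.504 and 0.609 in DKO. No column came near the genome mean. The window from 63 to 64 Mb, also without a gene start, had 0.585 ± 0.0828 (SD, n = 12). Input coverage was 0.813 of the mean in the first and 0.828 in the second.

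On chromosome 13 the window from 98 to 99 Mb was highest with 1.27 ± 0.0698 (SD, n = 12), with FARP1, RNF113B, STK24 and SLC15A1, a peptide transporter. The window from 112 to 113 Mb, with SOX1, a transcription factor of neural progenitors, had 1.27 ± 0.0976, and that from 45 to 46 Mb, with TPT1 and COG3, had 1.19 ± 0.0467 (SD, n = 12). The lowest windows, from 56 to 57 Mb, 55 to 56 Mb and 86 to 87 Mb, had no gene start and 0.578, 0.595 and 0.599.

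On chromosome 18 the window from 48 to 49 Mb was highest with 1.38 ± 0.103 (SD, n = 12) and holds the starts of ZBTB7C, CTIF and SMAD7, an inhibitor of TGF-beta signalling. The window from 23 to 24 Mb, with NPC1, which exports cholesterol from lysosomes, and LAMA3, a laminin chain, had 1.31 ± 0.0714. That from 58 to 59 Mb, with NEDD4L, a ubiquitin ligase of sodium channels, and MALT1, had 1.22 ± 0.0377 (SD, n = 12). The lowest 3, from 33 to 34 Mb, 65 to 66 Mb and 67 to 68 Mb, had 0.646, 0.651 and 0.651. They hold the starts of CCDC178 and ASXL3, of CDH7, a neuronal cadherin, and of DSEL.

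Windows with genes had more signal than windows without. The 123 windows with at least 5 gene starts had 1.01 ± 0.00704, the 156 with 1 to 4 had 0.829 ± 0.0457, and the 72 with none had 0.686 ± 0.0739 (SD, n = 12). The first and last differed by 0.324 ± 0.0686 (SD), in 12 of 12 columns (p = 0.000488, exact sign-flip test). Their mean GC contents were 40.8% and 35.5%, and the difference left after subtraction of the GC expectation was 0.0417 ± 0.0116 (SD, n = 12), in 12 of 12 columns (p = 0.000488, exact sign-flip test). Input coverage moved the same way, from 1.01 ± 0.00685 to 0.872 ± 0.0211 (SD, n = 12). When OG reads were divided by input reads, the 2 classes differed by 0.0557 ± 0.0195, and by -0.00137 ± 0.00261 (SD, n = 12) after GC matching (p = 0.103, exact sign-flip test), so the difference at equal GC content was not seen on that scale.

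Among these classes, taken as means over their windows, the windows without genes also had the widest spread of columns within a genotype. They ranged from 0.572 to 0.798 over the 12 columns, against 0.997 to 1.02 in windows with at least 5 gene starts. The windows without genes had 0.702 ± 0.0217 in WT and 0.699 ± 0.102 in MUTYH-/-, and 0.637 ± 0.0569 for OGG1-/- and 0.707 ± 0.105 for DKO (SD, n = 3). Single windows with genes could spread more, with an SD of 0.231 over 12 columns from 1 to 2 Mb of chromosome 4. By GC content, the SD over columns of member bins was 0.143 at 28%, 0.0223 at 41% and 0.124 at 50%. Gene starts and GC content were not told apart here.

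The windows that departed furthest from their GC expectation, on the scale of the deposited values, were not the highest or lowest ones. On chromosome 4 the window from 39 to 40 Mb, with RFC1, a subunit of the clamp loader of DNA replication, UGDH and RPL9, was above it by 0.140 ± 0.0914. The window from 139 to 140 Mb, with NAA15 and MGST2, was above it by 0.118 ± 0.0429 (SD, n = 12). On chromosome 13 the window from 111 to 112 Mb, with ARHGEF7, was below it by a difference of -0.226 ± 0.0608, and on chromosome 18 the window from 78 to 79 Mb, with SALL3, by -0.170 ± 0.0436 (SD, n = 12). Of the 5 windows furthest below, 4 were on chromosome 18, and all 5 furthest above were on chromosome 4, where input coverage was 1.05 to 1.10. These windows were chosen after their values were seen.

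Bins in gene bodies, 37.9% of the members, had 0.923 ± 0.0257 and bins outside genes and promoters 0.825 ± 0.0451 (SD, n = 12). On the other chromosomes these were 1.10 ± 0.0190 and 0.968 ± 0.00891. Bins at promoters were few (1349) and had 1.11 ± 0.120 at 50.1% GC, a difference of -0.191 ± 0.0887 from the GC expectation (SD, n = 12). Promoter bins of the other chromosomes had 1.33 ± 0.141 and a difference of -0.0792 ± 0.0493 from it (SD, n = 12). Both differences are on the scale of the deposited values and are not given with OG reads divided by input reads.

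Runs of guanine followed the same order. Members with fewer than 10 runs of 3 or more G or C had 0.539 ± 0.115, those with 10 to 19 had 0.787 ± 0.0575, those with 20 to 29 had 1.13 ± 0.0297 and those with at least 30 had 1.38 ± 0.113 (SD, n = 12). The last class made up 7.80% of the members and 16.4% of the other bins. Such runs and GC content move together, and their parts were not told apart.

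The highest bins of the genome were sparse on these chromosomes. Of the members, 3.37% ± 0.306 (SD, n = 12) were at or above the 95th percentile of their column, against 5.23% ± 0.0423 elsewhere. The share was below the 3.96% ± 0.234 given by GC content in 12 of 12 columns. Bins at or above that percentile in at least 2 of 3 columns of a genotype numbered 2014 for WT and 1976 for MUTYH-/-, and 2037 for OGG1-/- and 1952 for DKO. These were 0.573%, 0.563%, 0.580% and 0.556% of the members, against 1.44%, 1.43%, 1.67% and 1.40% elsewhere, and GC content gave 0.912%, 0.927%, 0.993% and 0.929% for the members. Bins that met this in all 4 genotypes numbered 5 on the 3 chromosomes (0.00142%) and 866 elsewhere (0.0354%). The percentile is that of the deposited differences of reads, so these are not the enriched bins of the study, which were called on a log2 ratio. Such differences also move with the number of reads. The other chromosomes, and the bins behind the GC expectation, include chromosome 15, with input coverage 1.39 of the genome mean. No share without chromosome 15 is given, so these contrasts are not of OG alone.

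No window or gene body on the 3 chromosomes was called in a knockout. limma with Benjamini-Hochberg adjustment over 2817 windows called 0 of 351 windows in MUTYH-/-, OGG1-/- and DKO against WT, and 0% of all windows were called in each. At an unadjusted p under 0.05 there were 2, 10 and 3 of the 351 windows (37, 78 and 150 of all 2817). Over 11665 gene bodies with at least 20 bins it called 0 of 968 gene bodies on the 3 chromosomes, and 0% of all gene bodies, in each knockout. The unadjusted p was under 0.05 for 46, 43 and 35 of the 968 (398, 540 and 509 of all).

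The fitted differences leaned one way in OGG1-/-. In 263 of 351 windows (74.9%) the difference from WT was below 0, with a median of -0.0383, against 51.7% of 2466 other windows and a median of -0.00324. In MUTYH-/- 48.7% and in DKO 39.0% of the 351 windows were below 0. This OGG1-/- median was -0.0147 without OGG1 2 and -0.00295 after centring within GC strata. The windows share their columns, and the median SE of a difference was 0.0570.

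The windows with the smallest p lay on chromosomes 18 and 4. In MUTYH-/- it was 11 to 12 Mb of chromosome 18, with PIEZO2, a channel for mechanical stimuli, and GNAL: 1.14, 1.07 and 1.03 against 1.01, 0.939 and 0.936 in WT. All 3 MUTYH-/- columns were above all WT columns, and the difference was 0.115 ± 0.0487 (SE; limma adjusted p = 1.00). In OGG1-/- it was 121 to 122 Mb of chromosome 4, with CCNA2, which encodes cyclin A2, and ANXA5: 0.788, 0.740 and 0.771 against 0.888, 0.891 and 0.869 in WT. The groups did not overlap, and the difference was -0.117 ± 0.0471 (SE; limma adjusted p = 0.850). In DKO it was 186 to 187 Mb of chromosome 4, with TLR3, a receptor for double-stranded RNA, and F11, which encodes coagulation factor XI: 1.11, 1.09 and 1.07 against 1.01, 0.965 and 0.991, a difference of 0.104 ± 0.0454 (SE; limma adjusted p = 0.831). Among gene bodies, chosen after their values were seen, the smallest p was at C4orf47 in MUTYH-/- (0.832 ± 0.262), TGDS in OGG1-/- (-0.806 ± 0.241) and MGST2 in DKO (-0.484 ± 0.153), with limma adjusted p of 0.999, 0.952 and 0.749 (difference ± SE).

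Gene families that are clustered on these chromosomes were read from 13 lists with 145 genes, of which 137 had at least 3 bins among the members. Another 7 genes had fewer bins and NFATC1 lay in a part left out. Of these gene bodies, 32 had a mean relative signal above 1. Over all 1225 protein-coding genes of the 3 chromosomes, 533 (43.5%) were above 1 with a median of 0.959, and elsewhere 74.6% of 17123 with a median of 1.29. No listed gene was called in a knockout by limma, among 86 tested.

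Adhesion molecules of the nervous system and the epidermis were low. Of 20 cadherins and protocadherins, 3 were above 1 and 17 below, with a median of 0.800. PCDH9 on chromosome 13, which spans 927 bins, had 0.760 ± 0.0777, PCDH7 on chromosome 4 had 0.790 ± 0.0929, CDH19 on chromosome 18 had 0.656 ± 0.177 and PCDH20 had 1.15 ± 0.542 over 6 bins (SD, n = 12). Of 7 genes for neuronal adhesion and axon guidance, 6 were below 1 with a median of 0.779. DCC, the netrin receptor, had 0.750 ± 0.0630 and ADGRL3, a latrophilin, 0.779 ± 0.0862 (SD, n = 12). SLITRK6 had 0.670 ± 0.293 and SLITRK1 had 1.14 ± 0.589 over 5 bins.

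Of 4 GABA-A receptor subunits on chromosome 4, all 4 were below 1 with a median of 0.637. GABRG1 had 0.548 ± 0.202, GABRA2 0.630 ± 0.103 and GABRB1 0.824 ± 0.0908 (SD, n = 12). GABRG1 lies in the window next to the lowest of that chromosome.

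The UGT2 glucuronosyltransferases, which conjugate steroids and drugs in the liver, had the lowest median of the 13 lists, 0.586, with 10 of 10 below 1. UGT2B17 had 0.0331 ± 0.0681 (SD, n = 12), from -0.0509 to 0.203, and its input coverage was 0.0375 of the genome mean, so hardly any reads of either kind mapped there. The other 9 had 0.501 to 0.713, with UGT2B15 highest at 0.713 ± 0.256, UGT2B7 at 0.640 ± 0.174 and UGT2A1 at 0.536 ± 0.163 (SD, n = 12). Input coverage of these 9 was 0.834 to 0.897 of the genome mean. Whether reads of these similar genes were split between copies was not tested, nor was the reason for the few reads at UGT2B17. UGT2A1 and UGT2A2 overlap.

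The other clusters of chromosome 4 were low as well. Of 16 secretory calcium-binding phosphoproteins (caseins, salivary proteins and proteins of enamel and bone), 15 were below 1, with a median of 0.640. HTN3, a histatin of saliva, had 0.385 ± 0.400, MUC7 0.673 ± 0.153, MEPE 0.607 ± 0.301 and AMBN, which encodes ameloblastin of enamel, 1.12 ± 0.307 (SD, n = 12). Of 7 plasma proteins, 7 were below 1 with a median of 0.791, from FGG at 0.616 ± 0.399 to FGA at 0.972 ± 0.430 (SD, n = 12). GC, the vitamin D binding protein, had 0.744 ± 0.183, and AFP, alpha-fetoprotein, had 0.634 ± 0.209.

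Of 7 alcohol dehydrogenases, 6 were below 1 (median 0.825), and ADH5, the form that oxidizes S-hydroxymethylglutathione, had 1.12 ± 0.366. ADH7 had 0.724 ± 0.238 and ADH4 had 0.835 ± 0.229 (SD, n = 12). Of 13 CXC chemokines, 6 had enough bins, and 5 of these were below 1 (median 0.884), with CXCL8 at 0.5003 ± 0.626 over 3 bins and CXCL13 at 0.948 ± 0.124. Of 10 clade B serpins on chromosome 18, 8 were below 1 (median 0.900), from SERPINB10 at 0.568 ± 0.184 to SERPINB5, which encodes maspin, at 1.27 ± 0.341 (SD, n = 12).

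The lists of signalling and repair genes had medians from 0.944 to 1.13. Of 5 receptor tyrosine kinases, 3 were above 1 with a median of 1.13: FLT3 had 1.22 ± 0.130, FLT1 1.13 ± 0.0852 and KIT, the lowest, 0.886 ± 0.142 (SD, n = 12). Of 12 tumour suppressors and signalling genes, 5 were above 1 with a median of 0.944. SMAD7 had 1.602 ± 0.242, the highest of all listed genes, at 52.3% GC, and FBXW7, a ubiquitin ligase subunit, had 0.701 ± 0.120 (SD, n = 12). RB1, which restrains entry into S phase, had 0.852 ± 0.0781.

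Of 13 genes for DNA repair and the nucleotide pool, 6 were above 1 with a median of 0.998. ABRAXAS1, a partner of BRCA1, had 1.26 ± 0.244, POLN, a DNA polymerase, 1.198 ± 0.130 and RNASEH2B 0.984 ± 0.118 (SD, n = 12). POLI, a polymerase of translesion synthesis, was lowest with 0.710 ± 0.256. Of these genes 11 were tested, and the difference from WT had an unadjusted limma p under 0.05 in 1 of them in each knockout. Over all 11665 gene bodies this held for 398 in MUTYH-/-, 540 in OGG1-/- and 509 in DKO. Other lists held such genes too, among them 2 of 17 tested cadherins and protocadherins in OGG1-/-. None was called by limma.

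Of 20 developmental transcription factors, 9 were above 1 with a median of 0.981 although their median GC content was 51.5%. Against bins of equal GC content, on the scale of the deposited values, 18 of 20 were below, with a median difference of -0.111. Over all genes of the 3 chromosomes that median was 0.00813, with 578 of 1225 below, but at a median GC content of 39.5%. Member bins with at least 50% GC were at -0.189 from such bins of the other autosomes. A shortfall of this size was thus not particular to the list. NKX3-2 had 1.58 ± 0.631 over 4 bins and SOX21 0.549 ± 0.673 over 3 bins (SD, n = 12). KLF12 had 0.782 ± 0.0706 over 448 bins and TCF4 0.847 ± 0.0692 over 443 bins.

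A list that was low in signal was not always low for its GC content. Against bins of equal GC content the median was above 0 in 5 of the 13 lists. It was 0.0526 for cadherins and protocadherins (7 of 20 below), 0.0601 for neuronal adhesion and axon guidance (3 of 7 below) and 0.0487 for alcohol dehydrogenases (2 of 7 below). For DNA repair and the nucleotide pool it was 0.0582 (3 of 13 below), and for tumour suppressors and signalling 0.00809 (3 of 12 below). The remaining 8 lists had medians below 0, with -0.120 for UGT2 genes (6 of 10 below), -0.0481 for GABA-A receptor subunits (3 of 4), -0.0419 for secretory phosphoproteins (12 of 16) and -0.0348 for plasma proteins (4 of 7). The median was -0.0331 for CXC chemokines (4 of 6 below), -0.0276 for clade B serpins (6 of 10) and -0.0163 for receptor tyrosine kinases (3 of 5). Over all genes of the 3 chromosomes, 578 of 1225 were below, with a median of 0.00813, and counts such as 3 of 7 lie near that share. These are descriptions, since genes of a list are neighbours in many cases and share the 12 libraries. They are on the scale of the deposited values, where the 3 chromosomes were at -0.0339 from their GC expectation. With OG reads divided by input reads the 3 chromosomes were at -0.00100, and the lists are not given on that scale.

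**Figure D5:**
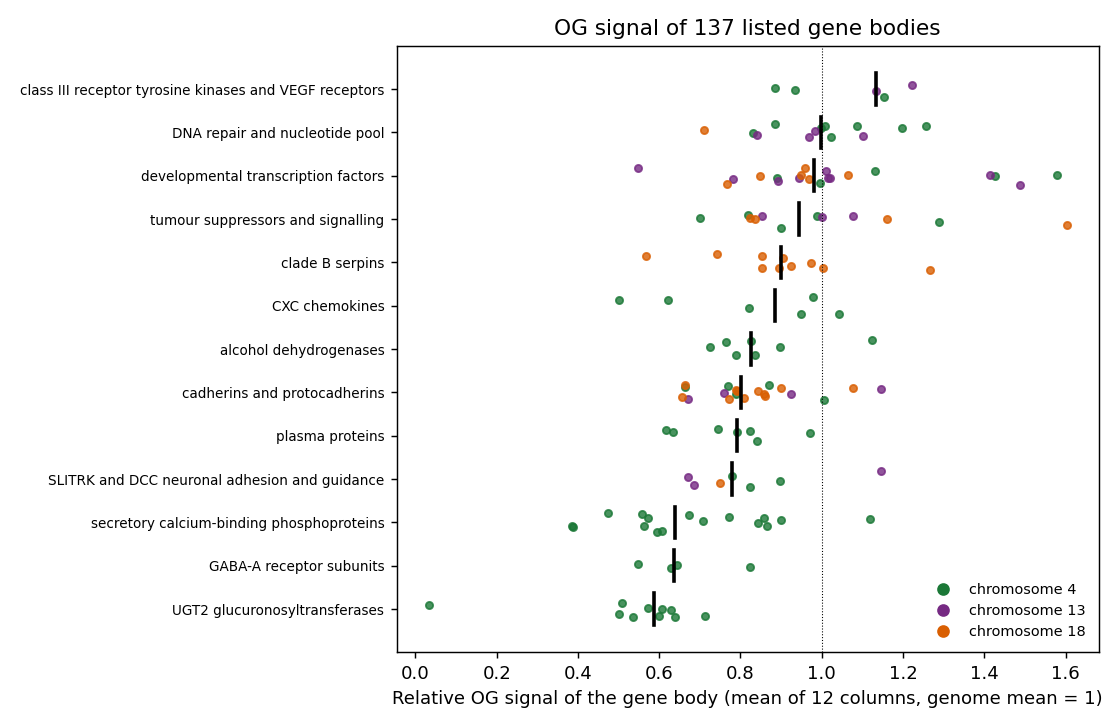
Relative OG signal of 137 gene bodies (x axis, mean of 12 columns, genome mean = 1) in 13 lists ordered by median (y axis), colored by chromosome, with the median of each list as a bar. UGT2 genes are lowest (median 0.586, UGT2B17 near 0) and receptor tyrosine kinases highest (median 1.13).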

How the data were processed

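HAP1 cells of 4 genotypes were compared by OG-seq. Per the labels and methods, the authors trimmed reads with cutadapt 2.8, mapped them to GRCh38 with Bowtie2 2.3.5.1, marked duplicates with SAMtools and counted reads in bins of 1 kb with bedtools. Blacklisted and incomplete bins were removed. The deposited score of a bin is its OG reads minus input reads scaled by signal extraction scaling (SES), a factor taken from bins without enrichment. Because it is not a count, no count model was used.

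Each column was divided by its mean over all bins. OG reads and input reads were solved from the score, with at most 14 bins unsolved in a column. Input coverage and the ratio of OG to input reads come from these. GC content and genes came from GRCh38 and GENCODE 44, and bin starts of the table fit this build. GC expectations are means of bins of equal GC content on the other autosomes, for bins with at least 500 called bases. The other chromosomes are all bins outside chromosomes 4, 13 and 18 that are not zero in all columns.

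Single values were compared over columns with exact sign-flip or permutation tests, two-sided, with Benjamini-Hochberg adjustment within families. Windows (at least 500 bins) and gene bodies (at least 20 bins) were tested over the whole genome with limma 3.58.1 in R 4.3.3, with all 12 columns in 1 fit and a variance trend, and the procedure was tested on simulated data. Other work used Python 3.11.15, numpy 2.4.6, pandas 2.3.3 and scipy 1.17.1.

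The members and the gene lists were chosen with earlier results of these data known. Named were the 3 highest and 3 lowest windows of a chromosome, the window with the smallest p in each knockout, and of each list the highest and lowest gene and up to 2 with the most bins. Other genes named in windows or lists are examples chosen after their values were seen. Sequences are from the highest and lowest windows with at least 900 bins. Some items that these rules name are not reported here. Alternatives changed the scaling, values below 0, extreme values, the windows, the strata of GC and the columns used. Columns were not tied to clones or experiments. The RNA-seq and mass spectrometry data were not analysed here.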

Additional observations from a re-analysis of the deposited data

How the results depend on the processing

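The differences of the 3 chromosomes, of each alone and of each pair kept their direction and stayed past the threshold under every alternative run. Of 277 alternative values in all, 265 kept their side of the threshold and, where they had one, their direction. The 277 include 72 fits of windows and 63 of gene bodies, whose value is a count of calls without direction. They also include exact tests of single knockouts against WT, which could not pass the threshold. The count of 265 is therefore not a measure of robustness. The others follow. With OG reads divided by input reads, the GC-matched signal of the 3 chromosomes was -0.00100 and no longer past the threshold, and the GC-matched difference of windows with genes against windows without turned to -0.00137. The cause was not tested. Without windows of changed input on the other chromosomes, added after the data were seen, the GC-matched signal was -0.0192.

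The difference of MUTYH-/- from WT, -4.5e-05, turned to 0.000539 with scaling by the median window, 0.00505 with values below 0 set to 0, 0.000255 with that ratio and 0.00230 after subtraction of the GC expectation. The difference of DKO, 0.00647, turned to -0.00647 with scaling by the median window. None of these passed the threshold. Leaving out columns gave -0.0168 to 0.0289 for MUTYH-/-, -0.0475 to -0.00955 for OGG1-/- and -0.0208 to 0.0394 for DKO. No window or gene body of the 3 chromosomes was called under any of 24 alternative fits of windows and 21 of gene bodies per knockout. Over the genome, the number of windows called in DKO rose from 0 to 26 after centring within GC strata and to 47 without DKO replicate 3.

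No paired analysis was possible because the columns of the table carry no clone or experiment number of the labels. Exact tests of 3 columns against 3 cannot reach the threshold for an effect of any size. Those comparisons of single knockouts with WT therefore exclude no effect, small or large. The exact permutation test of all 4 genotypes is not limited in this way and gave p = 0.645. The reads per bin limit what single bins and genes of few bins can show.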
